A study of Mus musculus with 2 samples.

Results

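The genes described here encode the mitogen-activated protein (MAP) kinase cascade and its brakes: the kinases named Map4k, Map3k, Map2k, Mapk and Mapkapk, the dual-specificity phosphatases named Dusp, and the Sprouty and Spred inhibitors. Members were chosen by symbol alone. Every probe set whose platform annotation names 1 gene starting with Map2k, Map3k, Map4k, Mapk, Dusp, Spry or Spred was taken, which gave 182 of 45037 probe sets and 81 of 18193 named genes. Of the 81 genes, 38 encode kinases, 31 encode phosphatases or inhibitors, and 12 are scaffolds or other products that share the prefix.

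RNA came from CD8+ T cells of pmel-1 mice, whose T cells carry a transgenic receptor for a melanocyte antigen, a background common to both groups. Naive cells were compared with proliferating cells taken 72 h after activation. RNA of 4 independent experiments was pooled for each group and put on 1 whole-genome array, so there are 2 arrays, no replicates, no test and no p-value, and differences between experiments cannot be seen. The sources used here do not give the activating agent, the purification method or the age of the mice, and a single receptor specificity limits the cells as a model of CD8+ T cells at large.

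In a MAP kinase cascade, a MAP3K activates a MAP2K, which activates a MAP kinase by phosphorylating a threonine and a tyrosine. The main branches end in ERK, which carries growth and antigen receptor signals through Ras and Raf, and in JNK and p38, which also carry stress and cytokine signals. Dual-specificity phosphatases remove both phosphates, and many of their genes are themselves induced by the pathway as negative feedback. Sprouty and Spred proteins act higher up, on Ras and Raf. In T cells the pathway helps to set the threshold of antigen receptor signalling, cytokine production and proliferation.

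Of the promoters of these genes, 4 are shown. Dusp5, Spry1 and Spry2 are called-higher inhibitors of the pathway with a promoter in the RefSeq table (GRCm38.p6), each below 100 in naive cells, and Dusp10 is shown as a phosphatase called lower. Each sequence is the 250 bases before the gene's start site, read 5′ to 3′ on the gene's strand. Capitals mark any match, on either strand, to the AP-1 site TGANTCA, the cyclic AMP response element TGACGTCA, the GC box GGGCGG, the ETS-type site CCGGAAGN, the E-box CACGTG or the CArG box, the site of serum response factor. The windows are chr19:53528895-53529144 on the plus strand for Dusp5, chr3:37639697-37639946 on the plus strand for Spry1, chr14:105896820-105897069 on the minus strand for Spry2, and chr1:184034131-184034380 on the plus strand for Dusp10.
Dusp5: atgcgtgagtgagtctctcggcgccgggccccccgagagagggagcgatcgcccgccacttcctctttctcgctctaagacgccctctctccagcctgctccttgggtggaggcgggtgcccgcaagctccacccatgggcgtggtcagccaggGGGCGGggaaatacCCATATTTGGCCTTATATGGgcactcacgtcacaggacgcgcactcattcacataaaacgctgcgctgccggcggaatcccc
Spry1: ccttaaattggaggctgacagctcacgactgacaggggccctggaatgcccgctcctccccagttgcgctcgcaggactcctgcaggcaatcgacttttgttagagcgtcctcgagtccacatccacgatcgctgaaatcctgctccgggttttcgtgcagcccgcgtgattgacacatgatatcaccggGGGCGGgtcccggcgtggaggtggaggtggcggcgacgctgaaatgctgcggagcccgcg
Spry2: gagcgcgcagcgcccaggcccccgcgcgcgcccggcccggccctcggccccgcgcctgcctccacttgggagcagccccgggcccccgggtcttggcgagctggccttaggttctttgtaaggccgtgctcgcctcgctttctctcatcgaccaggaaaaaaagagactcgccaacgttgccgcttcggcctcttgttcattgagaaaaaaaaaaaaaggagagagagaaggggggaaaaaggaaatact
Dusp10: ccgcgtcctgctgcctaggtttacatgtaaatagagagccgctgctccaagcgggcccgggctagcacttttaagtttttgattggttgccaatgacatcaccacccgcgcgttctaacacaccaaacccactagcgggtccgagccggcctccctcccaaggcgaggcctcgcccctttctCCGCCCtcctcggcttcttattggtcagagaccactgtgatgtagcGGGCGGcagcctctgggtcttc

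The Dusp5 window held 2 CArG boxes that abut each other, CCATATTTGG from -82 to -73 and CCTTATATGG from -72 to -63, counted back from the start site, and a GC box from -96 to -91. Among 32851 such windows of the table, 482 (1.47%) held a CArG box and 6 held 2 or more. Dusp5 was the only gene with one among the 65 of 81 members that had a window. GC boxes were found in 49 of 81 member windows (60.5%) and in 32.7% of all windows, including those of Spry1 and Dusp10, and the Spry2 window held none of the 6 motifs. AP-1 sites were present in 3 member windows (3.70%, against 6.75% of all windows) and cyclic AMP response elements in 3 (3.70%, against 1.55%), the latter in Dusp1, Dusp8 and Mapk10. ETS-type sites were present in 6 member windows (7.41%, against 6.88%) and E-boxes in 7 (8.64%, against 6.02%). These are letter matches and not measured binding.

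A value is the deposited intensity of a probe set, in arbitrary units. A difference was called when the ratio of the arrays was at least 1.4-fold, with values under 100 raised to 100, and the deposited values lay more than 100 apart. A gene is represented by its brightest probe set and counts as measured when at least 1 array reached 100. Where 1 array lay below 100 the fold is a lower bound. The medians of all probe sets were 56.2 on the naive and 52.3 on the activated array. The log2 ratio varied within a gene, between its probe sets, with an SD of 0.39 over all genes and 0.46 over 20 member genes. The 5 CD8 and CD3 markers summed to 30420 on the naive and 23058 on the activated array, and all were measured on both. Of these Cd8b1, at 7725 and 3554, was called lower and the other 4 were not called. Cd4 and Foxp3 lay below 100 on both arrays.

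Activated cells had higher levels of the feedback phosphatases Dusp4 and Dusp5 and of the inhibitors Spry1 and Spry2, all of which lay below 100 in naive cells. They also had more Map2k3, Map3k7, Mapk6 and Mapkapk2. Naive cells had more Map3k1, Map3k2, Map3k3, Map3k4 and Mapk9, and more of the phosphatases Dusp7 and Dusp10. By the size rule 14 of the 81 members were higher and 10 were lower in activated cells, where 12.8% of all 18193 genes were higher and 11.1% lower. Of the 58 measured members 24.1% were higher, near the 23.7% of all measured genes, and 17.2% were lower, against 20.6%. In bulk RNA, fewer cells of a type and less RNA per cell cannot be told apart.

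**Figure D1:**
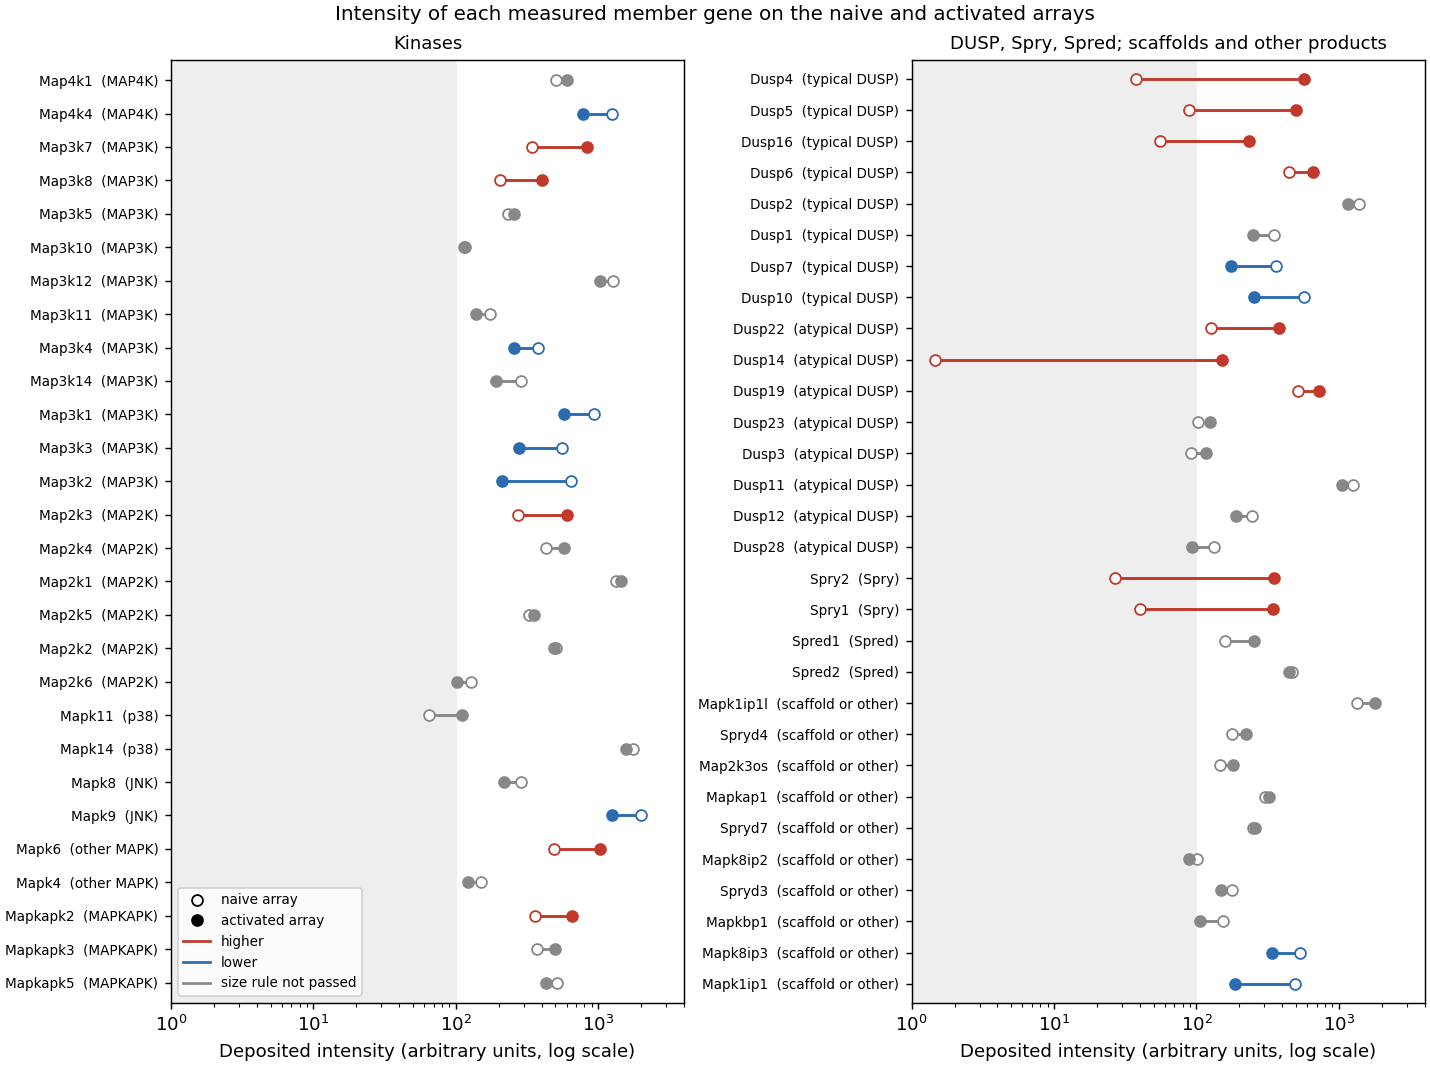
Deposited intensity (arbitrary units, log axis) of the 58 measured member genes on the naive array (open circles) and the activated array (filled circles), by the brightest probe set, with kinases on the left and all other products on the right. Red marks the 14 genes called higher and blue the 10 called lower, and grey shading covers values below 100, where 6 of the higher genes lay on the naive array.

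Phosphatases and inhibitors were called higher more often than kinases. Of the 31 phosphatase and inhibitor genes 9 were higher (29.0%) and 2 lower (6.45%). Of the 38 kinase genes 5 were higher (13.2%) and 6 lower (15.8%). The median log2 ratio was 0.38 over the 20 measured phosphatases and inhibitors, -0.10 over the 28 measured kinases and 0.01 over all 9842 measured genes. The gap between the classes comes from genes below 100 in naive cells. Of the 20 measured phosphatases and inhibitors 7 reached 100 on the activated array alone, and they counted as measured only through that array. Among the 12 that reached 100 on both arrays, 3 passed the rule upward and 2 downward, and the median was -0.15. The 27 such kinases had a median of -0.16, and 23.1% of all genes measured on both arrays were higher and 21.0% lower. With 1 array per group the difference between the classes has no test.

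**Figure D2:**
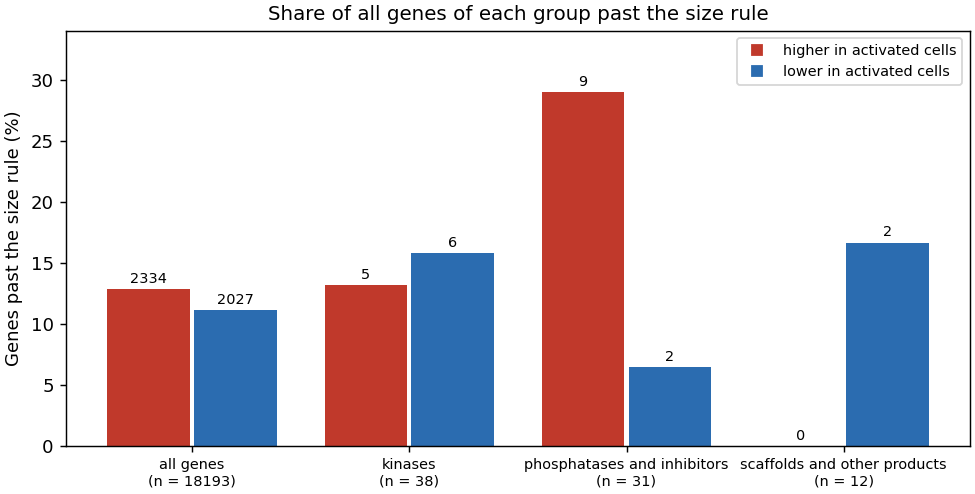
Percentage of all genes in each group that passed the size rule, higher in activated cells in red and lower in blue, with the number of genes above each bar and the group size under it. Phosphatases and inhibitors had 9 of 31 genes higher (29.0%), against 12.8% of all genes and 13.2% of kinases.

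At the top of the cascade stand the MAP4K and MAP3K genes, of which 13 of 18 were measured, 2 higher and 5 lower. These are 15.4% higher and 38.5% lower, against 23.7% higher and 20.6% lower among all measured genes. Map3k7 encodes TAK1, a kinase shared by the NF-kappaB, JNK and p38 pathways. It was at 341 on the naive and 828 on the activated array, 2.43-fold higher. Its 4 measured probe sets spread from -0.45 to 1.33 on the log2 scale, and 3 of them lay above 0. Map3k8 (TPL2), which activates the ERK branch downstream of NF-kappaB signals, was at 205 and 404, 1.97-fold higher by its only probe set. No other MAP3K was called higher.

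The MEKK genes, whose products feed several branches, were lower together. Map3k2 (MEKK2) was at 649 on the naive and 211 on the activated array, 3.08-fold lower, the largest fold among called-lower members. Its other measured probe set, at 150.3 and 75.6, had a log2 ratio of at most -0.59 and was not called. Map3k3 (MEKK3) was at 557 and 278, 2.00-fold lower, and its 3 probe sets ranged from -1.46 to -0.82. Map3k1 (MEKK1) was at 940.1 and 578, 1.63-fold lower. Map3k4 (MEKK4), the kinase that GADD45 proteins bind, was at 375 and 254, 1.48-fold lower. The 4 probe sets of Map3k4 lay close together, from -0.56 to -0.46, but the brightest alone differed by more than 100. Activated values were thus below naive values for every measured probe set of these 4 genes.

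By their brightest probe sets, Map4k4 alone was called among the remaining upstream kinases. Map3k14 (NIK), the kinase of the alternative NF-kappaB pathway, was at 285 and 191. These lie 1.49-fold apart, with activated minus naive at -93.8, just short of the rule, while its dimmer probe set was called lower. Map3k12 (DLK) was at 1269 and 1026 by its brightest probe set. Its other measured probe set was at 100.0 and 80.0, and the rest lay below 100 on both arrays. Map3k5 (ASK1), a sensor of oxidative stress, was at 232 and 258, Map3k11 (MLK3) at 174 and 138, and Map3k10 (MLK2) at 115 and 116. Map4k1 (HPK1), a brake on antigen receptor signalling, was at 507 and 604 and did not pass. Map4k4 (HGK) was at 1248 and 777, 1.61-fold lower, although its 4 measured probe sets ran from -0.86 to 0.05. Map3k6, Map3k9, Map3k20, Map3k21 and Map4k5 lay below 100 on both arrays.

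All 6 MAP2K genes were measured, and only Map2k3 passed the rule, where 23.7% of all measured genes were higher and 20.6% lower. Map2k3 (MKK3), an activator of p38, was at 272 on the naive and 604 on the activated array, 2.22-fold higher. Its second probe set gave a log2 ratio of 1.40 beside the 1.15 of the brightest. Map2k6, the other dedicated p38 activator, was at 127 and 101.3. The ERK activators Map2k1 (MEK1) and Map2k2 (MEK2) were at 1323 and 1452 and at 504 and 491, or 1.10-fold and 1.03-fold apart. Map2k4 (MKK4), which serves JNK and p38, was at 428 and 571, 1.33-fold higher and not called. Map2k5, which activates the large MAP kinase ERK5, was at 324 and 355.

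Among the MAP kinases themselves 6 of 11 were measured, 1 of them higher and 1 lower. That is 16.7% each way, against 23.7% higher and 20.6% lower among all measured genes. The genes for ERK were not analysed here. Mapk6, which encodes the atypical kinase ERK3, was at 485 and 1027, 2.11-fold higher. A dimmer probe set of Mapk6 gave 1.17 and another -0.78, so its probe sets disagree in sign. Mapk9 (JNK2) was at 1991 and 1253, 1.59-fold lower, while its other probe sets gave -0.23 and -0.05 and were not called. Mapk8 (JNK1) was at 287 and 218, 1.31-fold lower and not called. Mapk14, the main p38 gene, was at 1749 and 1569 and did not pass. Its dimmer measured probe sets had log2 ratios of 0.41 and of 0.69, the latter called higher.

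The other p38 and atypical genes were dim. Mapk11 was at 65.2 and 111, and Mapk4 (ERK4) at 149.8 and 121. Mapk7, Mapk10, Mapk12, Mapk13 and Mapk15 lay below 100 on both arrays. Downstream of p38, Mapkapk2 (MK2), a kinase that acts on proteins controlling cytokine messages, was at 358 and 649, 1.81-fold higher. Mapkapk3, its close relative, was at 372 and 493, with a second probe set called higher at a log2 ratio of 0.77. Mapkapk5 was at 514 and 429. In the p38 branch Map2k3 and Mapkapk2 were therefore called higher, while the brightest probe set of the gene between them, Mapk14, was not called.

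**Figure D3:**
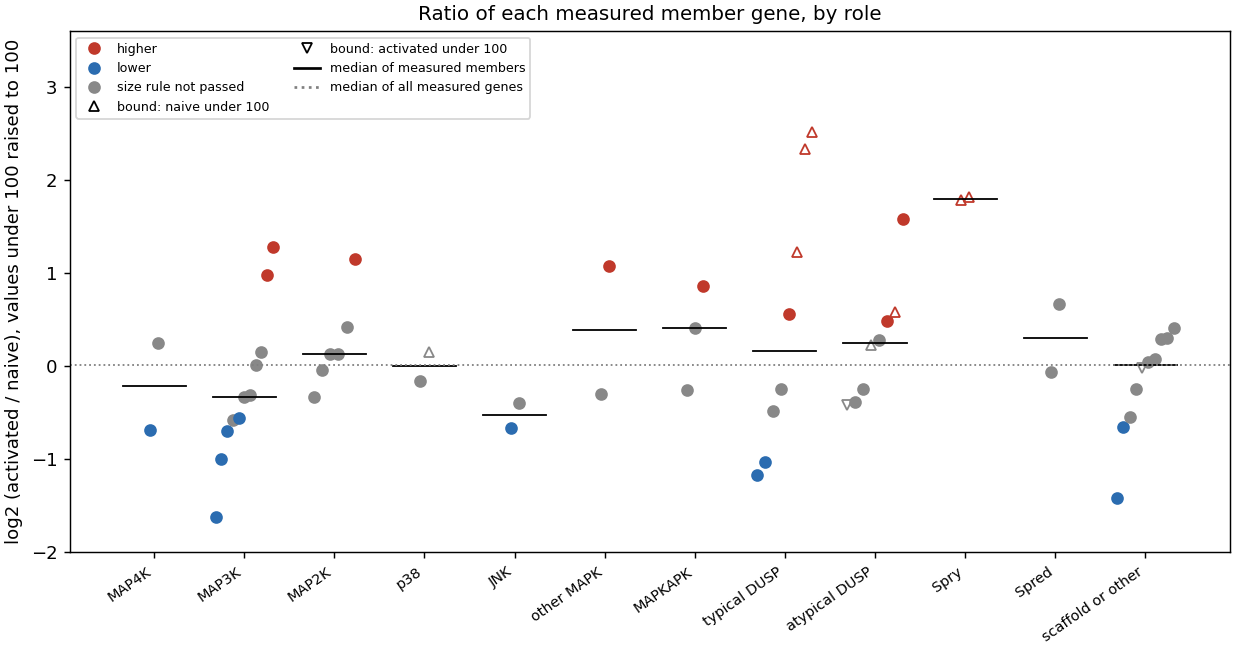
Log2 ratio of activated over naive, with values under 100 raised to 100, for each measured member gene by role, where black bars are medians and the dotted line is the median of all measured genes (0.01). Open triangles are bounds, and the 4 highest points, Dusp4, Dusp5, Spry2 and Spry1, are all of this kind, so that their height depends on the floor.

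The typical MAP kinase phosphatases carry a domain that docks onto MAP kinases, and 8 of these 10 genes were measured, 4 higher and 2 lower. Of all measured genes 23.7% were higher and 20.6% lower. Of the 4 higher genes 3 counted as measured only through the activated array. Among the 5 typical phosphatases at 100 or above on both arrays 1 was higher and 2 were lower, with a median log2 ratio of -0.48. Dusp4 (MKP2), a nuclear phosphatase, had 37.6 in naive and 570.4 in activated cells. The difference was at least 5.70-fold, a bound that moves with the floor of 100. Dusp5, a nuclear phosphatase that acts on ERK, was at 88.5 and 504, at least 5.04-fold higher. Dusp16 (MKP7), which prefers JNK and p38, was at 55.7 and 234, at least 2.34-fold higher. Dusp6 (MKP3), the cytoplasmic ERK phosphatase, was present on both arrays at 444 and 657, 1.48-fold higher. Each of these 4 calls rests on 1 measured probe set.

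Other typical phosphatases were lower or near to no difference. Dusp10 (MKP5), which acts on JNK and p38, was at 567 and 252, 2.25-fold lower, and its dimmer probe set, at 122 and 76.2, gave at most -0.29. Dusp7, a cytoplasmic ERK phosphatase like Dusp6, was at 360.1 and 176, 2.05-fold lower. All 3 probe sets of Dusp7 lay below 0, from -1.03 to -0.43, with the brightest alone called. By their brightest probe sets Dusp6 was thus called higher and Dusp7 lower, and likewise Dusp16 higher and Dusp10 lower. Dusp1 (MKP1), an immediate early gene, was at 349 and 250.4, 1.39-fold lower and just short of the fold minimum. Dusp2 (PAC1), abundant in lymphoid cells, was at 1378 and 1161 and did not pass. Dusp8 and Dusp9 lay below 100 on both arrays.

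The atypical phosphatases lack the docking domain and act on varied substrates, and 8 of 14 were measured, 3 higher and none lower. For comparison, 23.7% of all measured genes were higher and 20.6% lower. Dusp14 counted as measured only through the activated array. Among the 5 atypical phosphatases at 100 or above on both arrays, 2 were higher and none lower. Dusp22 (JKAP), described as acting on the T cell kinase Lck, was at 127 and 378, 2.99-fold higher. Dusp14 (MKP6), a negative regulator of T cell receptor signalling, was at 1.46 and 150, at least 1.5-fold higher, and the activated value is itself near the floor. Dusp19 was at 513 and 721, 1.40-fold higher, just inside the fold minimum, and its dimmer measured probe set gave a log2 ratio of 0.73. Dusp11, an RNA phosphatase, was at 1251 and 1057 and did not pass. Dusp12 was at 247 and 189, Dusp28 at 133 and 93.5, Dusp23 at 103 and 125, and Dusp3 (VHR) at 91.1 and 117, none of them called. Dusp13, Dusp15, Dusp18, Dusp21, Dusp26 and Dusp27 lay below 100 on both arrays.

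Spry1 and Spry2 encode Sprouty proteins, inhibitors of the Ras to ERK branch. Spry1 had 40.3 in naive and 344 in activated cells, a difference of at least 3.44-fold. Spry2 was at 26.6 and 353, at least 3.53-fold higher. Its other probe set lay below 100 on both arrays, at 1 and 20.7, and Spry1 had 1 probe set. Spry3 (46.8 and 46.1) and Spry4 (60.8 and 83.7) stayed below 100 on both arrays. Of the Spred genes, whose products bring the Ras inhibitor neurofibromin to the membrane, none was called. Spred1 was at 159.7 and 255, 1.59-fold apart with a difference of 94.9, just short of the rule. All 4 measured probe sets of Spred1 lay above 0, from 0.08 to 0.67. Spred2 was at 469 and 449, and Spred3 lay below 100 on both arrays.

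Of the 12 products that only share the prefix, 10 were measured, none higher and 2 lower. The lower share, 20.0%, is near the 20.6% of all measured genes, of which 23.7% were higher. Mapk1ip1 was at 493 and 185, 2.66-fold lower, by a probe set whose suffix (_s_at) marks probes shared between transcripts. Mapk8ip3 (JIP3), a JNK scaffold, was at 535 and 341, 1.57-fold lower. Mapk1ip1l was at 1346 and 1791 and not called, and its dimmer probe set was called lower at -0.67. Mapkap1 (SIN1), a subunit of the mTORC2 complex, was at 304 and 322, and Mapkbp1, which binds JNK, at 155 and 106. Map2k3os, an RNA antisense to Map2k3, was at 147 and 179, 1.22-fold apart and not called. Mapk8ip2, Spryd3, Spryd4 and Spryd7 did not pass, and Mapk8ip1 and Map3k7cl lay below 100 on both arrays.

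**Figure D4:**
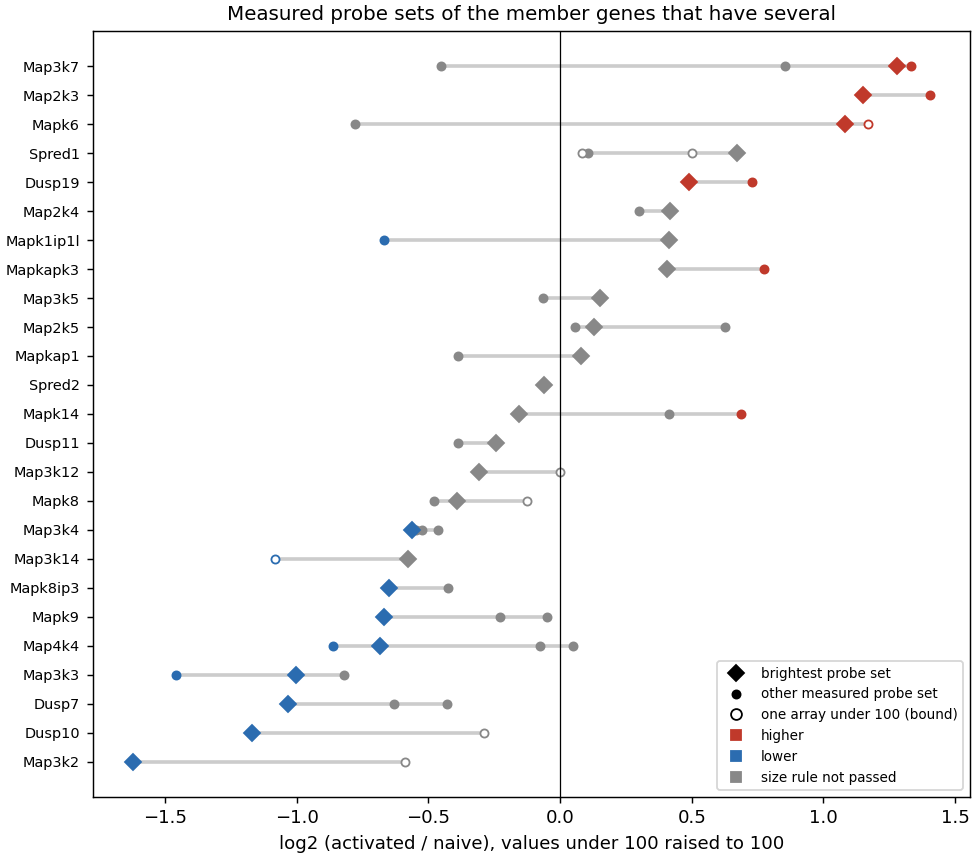
Log2 ratio of every measured probe set for the 25 member genes that have several, with the brightest as a diamond, open symbols as bounds, and colour as the call of each probe set. No gene was called both higher and lower, while 7 genes, Map3k5, Map3k7, Map4k4, Mapk14, Mapk1ip1l, Mapk6 and Mapkap1, had probe sets on both sides of 0.

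Counted by probe set, 98 of the 182 were measured, 20 of them higher and 14 lower, where 21.9% of all measured probe sets were higher and 19.3% lower. Of the 25 genes with several measured probe sets, 14 had probe sets that differed in call. Another 33 genes rested on 1 measured probe set. Under every alternative setting that gave them a value, 8 genes kept the call higher, namely Dusp4, Dusp5, Dusp22, Spry1, Spry2, Map2k3, Map3k7 and Mapk6. The setting that kept only members at or above the floor on both arrays gave no value for Dusp4, Dusp5, Spry1 and Spry2. They lay below the floor in naive cells, so their calls were not tested there. Dusp4, Dusp5, Dusp22, Spry1 and Spry2 each had 1 measured probe set, so the median over probe sets could not change their calls. The genes Dusp10, Map3k2, Map3k3 and Mapk1ip1 kept the call lower. Mapk1ip1 had 1 probe set, so the median could not change its call, and leaving out probe sets ending in _s_at gave it no value. Dusp19 lost its call under median, quantile and loess scaling and Dusp6 under quantile normalization, while Map3k8, Dusp14, Dusp16, Dusp7, Map3k4 and Mapk8ip3 lost theirs with a difference minimum of 200. With the median over the probe sets of a gene, Dusp7, Map3k4, Map4k4 and Mapk9 were no longer called lower. Without probe sets ending in _x_at or _s_at, Dusp7, Map3k4 and Map4k4 were not called. With a fold minimum of 2, Dusp6, Dusp14, Dusp19, Map3k8, Mapkapk2, Map3k1, Map3k4, Map4k4, Mapk8ip3 and Mapk9 were not called, and Dusp16 was not called with a floor of 200.

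Genes around the cascade were listed with earlier results of these data known, and their counts stand beside 23.7% of all measured genes higher and 20.6% lower. Of 13 measured Ras and Raf input genes none was higher and 3 were lower, with a median log2 ratio of 0.01. The lower genes were the exchange factors Sos1 (1124 and 460.1) and Rasgrp1 (1875 and 806), which load Ras, and Rasgrp2 (1420.5 and 637), which loads Rap. Of 13 measured genes listed as brakes on Ras and Raf 1 was higher and 5 lower (median -0.31). The lower genes included the Ras GTPase-activating genes Rasa3 (1975 and 591) and Rasal3 (2259 and 643). They also included Rassf2 (1025 and 144) and Rassf5 (3144 and 1574), which are not of that kind, so the count is not one of Ras brakes alone. Of 13 measured genes listed as other phosphatases 3 were higher and 2 lower (median 0.08). This list is broad, and its counts are not specific to phosphatases of MAP kinases. It includes the subunit gene Ppp2r1b (613 and 936, called higher) and Ppm1k (454 and 219, called lower). Substrate kinases outside the prefix were higher for none and lower for 1 of 4 (median -0.43). Stress kinase inputs were higher for 3 and lower for 6 of 16 (median -0.25), and Gadd45b, a partner of MEKK4, was at 519 and 127, 4.07-fold lower. Its relative Gadd45g, chosen after its values were seen, was at 52.4 and 169.8, at least 1.70-fold higher. Of 22 measured nuclear targets 6 were higher and 9 lower (median -0.09). Among these, Fos was at 528 and 87.4, at least 5.28-fold lower, and Ier5 2.86-fold lower, while Atf3 was at least 4.51-fold and Phlda1 4.53-fold higher. Junb was at 2032 and 1911.

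Marker lists of other blood cells had lower sums on the activated array, though many single markers were not called. Of all genes 11.1% were lower, and of all measured genes 20.6%. Of the B cell markers 5 of 6 were measured and 3 were lower, with summed levels of 6011 on the naive and 3368 on the activated array. Most of both sums was Ighm, at 4990 and 2968. Dendritic cell markers summed to 5931 and 908 (3 of 6 lower), and myeloid markers to 1261 and 664 (3 of 8 lower). Erythroid markers summed to 7030 and 47.9 (1 of 3 lower). Nearly all of the naive sum was Hbb-b2, at 6852, while Hba-a1 lay below 100 on both arrays (50.9 and 45.9). Hbb-b2 and Alas2 were at 1, the lowest deposited value, on the activated array. Plasma cell markers summed to 2298 and 600 (2 of 3 lower, 1 higher), and NK cell markers to 1176 and 457 (2 of 3 lower). The NK sums came mostly from Eomes (725 and 215) and Klre1 (397 and 214), while Ncr1 lay below 100 on both arrays. Whether the CD8+ T cells themselves carried Eomes or Klre1 was not tested. CD4 T cell markers summed to 251 and 235 and platelet markers to 438 and 409, with none called. The part of such transcripts in the levels of the members was not tested. As a check of RNA quality, the Actb signal at the 3′ end over that at the 5′ end was 1.20 in naive and 1.11 in activated cells, and that of Gapdh 0.85 and 0.86.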

How the data were processed

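Expression was measured on 1 array per group, each with RNA pooled from 4 experiments. The deposited intensity of a probe set is linear and was computed by the submitters with the difference model of dChip and normalized by its invariant set method, per the labels' design text. For dChip no version is stated there. GCOS 1.3 is named in the design text for present calls, which were not used here, and GCOS stands in the submitters' processing notes. Low values of a difference model are unreliable, hence the floor of 100.

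Of 45101 probe sets 64 controls were left out. Gene symbols came from the platform annotation (34945 probe sets with 1 symbol, 932 with several, 9160 unnamed here). All 81 member Entrez identifiers matched RefSeq, which changed 0 symbols. Another 8 genes with these prefixes were not analysed here. The size rule keeps the fold of 1.4 and the difference of 100 that the design text states, without its confidence bound and present call. The ratio, counts and medians were computed with Python 3.11.15 and pandas 2.3.3. The rule was also run on simulated data, with differences planted in bright genes and less scatter than lies between probe sets of a gene. That run checks the code and does not measure the error of the calls made here. Any measured member may be named. From each list of other pathway genes, up to 4 genes with the largest ratios and up to 2 nearest to no difference may be named. Members and lists were chosen with earlier results of these data known. Alternatives were other fold, difference and floor settings, 3 scalings, and other choices of probe sets and members.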

Additional observations from a re-analysis of the deposited data

How the results depend on the processing

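With a fold minimum of 2, 9 members were higher and 5 lower, and 3 kinases were higher and 2 lower. Lower phosphatases and inhibitors numbered 1, not 2, with a difference minimum of 200, with the median over the probe sets of a gene, and without probe sets ending in _x_at or _s_at. Without those probe sets 6 members were lower in all. The difference in median log2 ratio between kinases and phosphatases with inhibitors, -0.48, was -0.33 with a floor of 200 and -0.30 with the median over probe sets. With typical phosphatases, Spry and Spred only, that difference was -0.72 and their median 0.62. Restricting members to those at 100 or above on both arrays, an alternative chosen after seeing the data, left 8 members higher, 3 of them phosphatases or inhibitors. It turned the median of that class to -0.15 and the difference to -0.0049, because the genes below 100 in naive cells drop out. The other 96 values of counts and medians under the alternatives stayed within 1.5 times the count or 0.1 of the median. No called member changed direction in any of these settings, but another fold, difference or floor cannot turn the sign of a ratio. Scaling moved the median of all genes by less than 0.1. No paired analysis was possible because each group has 1 array. Low signal limits 23 of the 81 members, which lay below 100 on both arrays.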

Other observations

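The annotation names Mapkapk5 together with Adam1a on 4 further probe sets, which were left out of the counts above because they name several genes. The brightest of them was at 179 on the naive and 195 on the activated array, and the other 3 lay below 100 on both. The probe set that names Mapkapk5 alone was at 514 and 429.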
